A study of Sus scrofa with 6 samples.

Results

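VRTN and 9 genes that lie near it on the same pig chromosome were followed in whole embryos that carry both VRTN quantitative trait nucleotides (QTNs) on each chromosome (QQ) and in wild-type embryos (WT). The 10 genes were chosen by name and position, with earlier results of these data known. Some measured genes that lie between them are not among the 10. Each of the 10 is a single transcript row of the deposited table, picked by its Ensembl identifier, out of 20523 rows in all. The embryos were Large White, at 17.5 to 18.0 days post coitum, with 3 QQ and 3 WT libraries of messenger RNA and 12.2 to 13.5 times 1e+06 uniquely mapped reads in each. QQ embryos were homozygous for the pair of QTNs and WT embryos, called qq by the submitters, were wild type at both, as genotyped in the extra-embryonic tissue of each embryo. The labels name no litter, dam or sex, so the p-values speak only of the spread among these 6 animals. A whole embryo is a mixture of tissues, and in such bulk samples fewer cells of a type and less RNA per cell cannot be told apart.

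VRTN encodes vertnin, a nuclear protein that in pigs is tied to the number of thoracic vertebrae. The embryos were taken at the stage when somites, the blocks of mesoderm from which vertebrae form, are laid down along the body axis. The genes beside VRTN have other jobs: acyl-CoA thioesterases release fatty acids from coenzyme A, and the remaining neighbours serve mitochondrial, lysosomal and prostaglandin metabolism, protein folding, cilia and neurons. A QTN can act on the gene that holds it or on genes close by, so the neighbours were compared between the genotypes in the same way as VRTN.

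Values are RPKM, reads scaled to the length of the transcript in kilobases and to the mapped reads of the library, and fold changes are log2 values of QQ over WT from edgeR's quasi-likelihood test, with their standard error (SE). Genotype differences were called at an adjusted p under 0.05 over all 13958 tested rows. The adjustment can give rows with different unadjusted p the same adjusted p. No member passed. The same edgeR test called 0 rows over the whole table (0.0%), while 2839 rows had an unadjusted p under 0.05 (20.3%). DESeq2 called 111 rows (0.795%), and limma on log2(RPKM + 0.5) called 0 (0.0%). Markers of somites were present: MEOX1, TCF15, PAX1 and MSGN1, the 4 of 8 listed markers with a row, summed to 38.004 to 50.7 RPKM in QQ and 37.6 to 44.8 RPKM in WT libraries. Of 4 listed neural tube markers only 1 had a row, FABP7, at 21.2 to 39.0 RPKM in QQ and 28.9 to 37.5 RPKM in WT libraries. The 6 measured of 7 erythroid markers summed to 231 to 2478 RPKM in QQ and 1703 to 6188 RPKM in WT libraries, and 5 of 7 yolk sac and hepatic endoderm markers to 37.1 to 614 RPKM in QQ and 41.9 to 310.0 RPKM in WT libraries. The 5 measured of 6 trophoblast markers lay at 16.7 to 18.5 RPKM in QQ and 16.1 to 19.5 RPKM in WT libraries. No measured marker was at 0 in all 6 libraries, and the part of these cells in the results was not tested. WT replicate 3 stood apart from the others, at 61.7 on the first principal component (57.7% of the variance), against -29.99 to -10.95 for the QQ libraries and -1.002 and 9.13 for WT replicates 2 and 1. It was the lowest of the 6 libraries in RPKM in 41.4% of tested rows, and values are given with and without it where it matters.

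VRTN itself was barely detected. Its row, of 3148 bp, held 2, 0 and 1 reads in QQ replicates 1 to 3, against 0 reads in each of the 3 WT libraries. The 2 reads of QQ replicate 1 covered 98 bases of the transcript and the read of QQ replicate 3 covered 49 bases, so the 2 reads of QQ replicate 1 did not overlap. The QQ total came to 0.0784 CPM (counts scaled to a total of 1e+06 reads; exact 95% Poisson interval 0.0162 to 0.229), and the same interval for the WT total of 0 reads reached 0.0951 CPM, so the intervals overlapped. The floor used here, a set total of 3 reads, is worth 0.0774 CPM in the WT libraries, below the upper end of that interval. Both groups held 3 reads or fewer in all, so no fold change is given. On log2(RPKM + 0.5), an exact permutation test (two-sided) returned p = 0.4; with 3 against 3 libraries no p below 0.1 is possible. At this depth no difference between levels as low as these could be detected, and VRTN could not serve as a check of the genotype labels.

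Such counts were common at this level. Of all rows, 2295 (11.2%) held 3 reads or fewer over the 6 libraries. Among the 429 rows with 3 reads in total, 73 had all 3 in QQ libraries and 43 had all 3 in WT libraries. The mean of VRTN over the 6 libraries, 0.0122 RPKM, was above that of only 3.35% of rows.

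The 9 neighbours were all expressed and all passed the filter on low counts. Their mean levels over the 6 libraries can be put in order, though the ranges of most neighbours in that order overlapped. NPC2 was highest at 49.2 RPKM, and its lowest library, at 42.0 RPKM, lay above the highest library of any other member. ALDH6A1 (31.0 RPKM), PTGR2 (29.1 RPKM) and COQ6 (25.8 RPKM) came next, with ranges over libraries that overlapped. LOC100158115 (14.4 RPKM), PNMA1 (9.43 RPKM), ACOT6 (7.16 RPKM), ENTPD5 (6.99 RPKM) and DNAL1 (4.95 RPKM) followed, and in this part of the order each gene's range overlapped that of the next. The lowest library of COQ6, at 22.5 RPKM, was above the highest of LOC100158115, at 18.9 RPKM, but ALDH6A1, with 18.5 RPKM in WT replicate 3, overlapped LOC100158115.

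**Figure D1:**
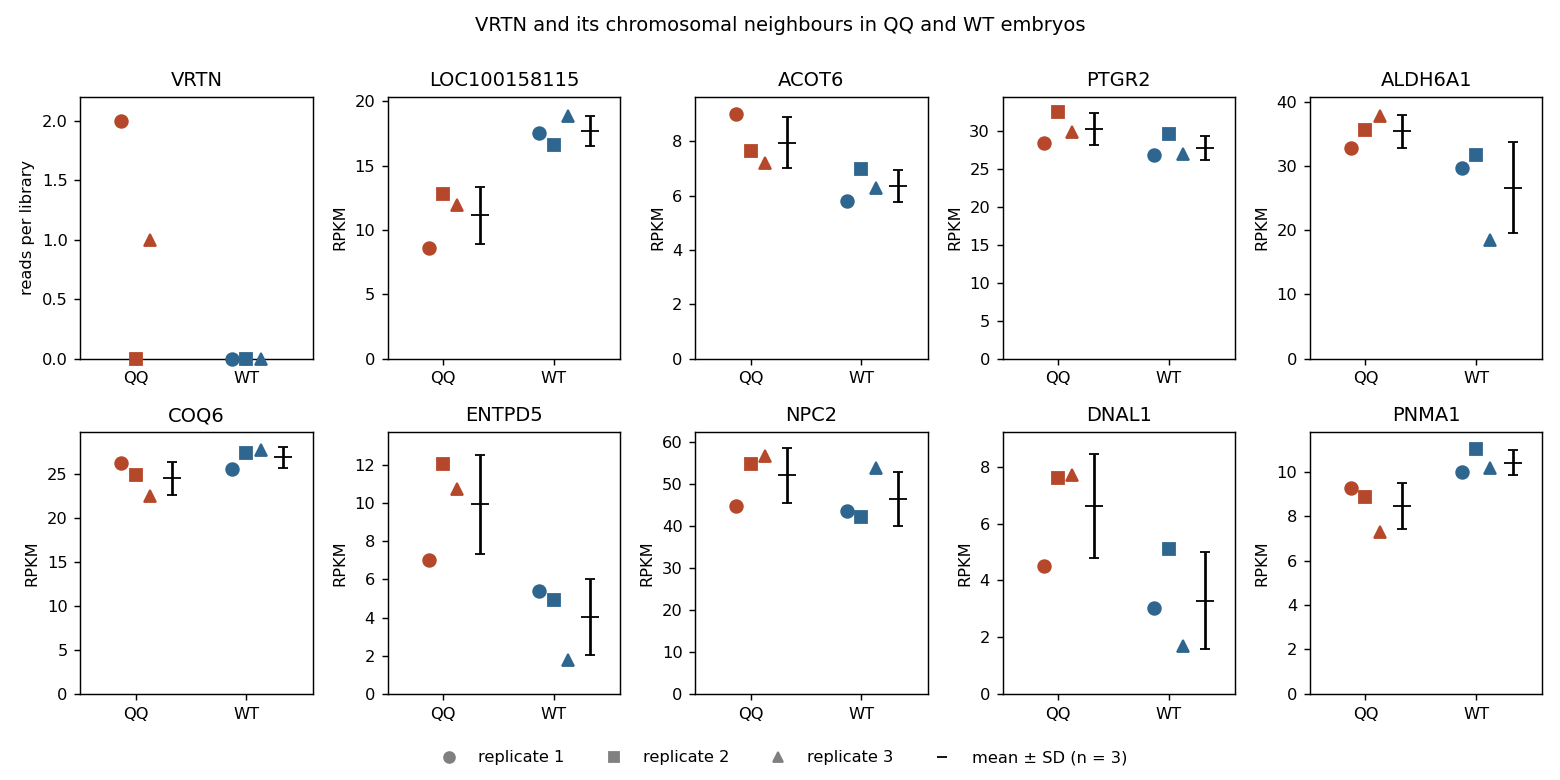
Level of each of the 10 genes in each library, in RPKM (VRTN in reads), with QQ left of WT, symbols for replicates 1 to 3 and bars for the mean ± SD over 3 libraries. LOC100158115 lies lower in all 3 QQ libraries than in any WT library, ENTPD5 lies higher in all 3, and VRTN has 3 reads in all.

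Acyl-CoA thioesterases cleave the bond between a fatty acid and coenzyme A. LOC100158115 is described in the deposited table as acyl-coenzyme A thioesterase 4, which in the mouse works in peroxisomes on dicarboxylic and succinyl esters. Its RPKM was 8.59, 12.8 and 11.96 in QQ replicates 1 to 3, against 17.6, 16.6 and 18.9 in WT replicates 1 to 3. Every QQ library was below every WT library, with QQ replicate 1 lowest of all. The means were 11.1 ± 2.23 RPKM in QQ and 17.7 ± 1.15 RPKM in WT embryos (SD, n = 3 each), and the log2 fold change came to -0.77 ± 0.16. That is 0.585 times the WT level, with an unadjusted p of 0.000701 and an edgeR adjusted p of 0.234, so the difference did not pass. DESeq2 on the same counts called it lower, with a log2 fold change of -0.76 ± 0.18 (SE) and an adjusted p of 0.0165. Over the edgeR and limma settings with all 6 libraries its adjusted p ran from 0.229 to 0.295. With each library left out in turn the edgeR adjusted p ran from 0.140 to 0.526. The log2 fold change of these fits stayed between -0.87 and -0.64, and without WT replicate 3 it was -0.70 ± 0.15. The covered share of the transcript was alike in both groups, at 89.3% to 89.9% in QQ and 88.7% to 90.8% in WT libraries. How evenly the reads lay along it was not measured.

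ACOT6, a second thioesterase of the same family and the next gene in the chromosomal order, had higher values in QQ libraries, by a difference that did not pass. It had 9.03, 7.63 and 7.22 RPKM in QQ replicates 1 to 3, against 5.80, 6.99 and 6.28 RPKM in WT replicates 1 to 3. The groups were separate in RPKM, but by a narrow gap, and they overlapped once counts were scaled by TMM factors (13.1 CPM in QQ replicate 3, 13.5 CPM in WT replicate 2). Its log2 fold change was 0.23 ± 0.18 (edgeR adjusted p = 0.437), so no difference was called. Without QQ replicate 1 it was 0.095 (edgeR adjusted p = 0.789). Reads covered 64.0% to 69.7% of the transcript in QQ and 60.1% to 70.0% in WT libraries, less than for LOC100158115.

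The pair can be compared within each library, where scaling between libraries plays no part. The RPKM of LOC100158115 divided by that of ACOT6 was 0.952, 1.68 and 1.66 in QQ replicates 1 to 3, against 3.03, 2.37 and 3.00 in WT replicates 1 to 3. LOC100158115 was thus the more abundant row in all 3 WT libraries and in 2 of 3 QQ libraries. The log2 ratio averaged 0.47 ± 0.47 in QQ and 1.48 ± 0.20 in WT embryos (SD, n = 3 each), a difference of -1.01. Both genes were already separate in RPKM, in opposite directions, so their ratio had to be separate too. An exact permutation test of the ratio could only return its smallest possible p, and none is given. This ratio was chosen after the values of both genes had been seen.

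**Figure D2:**
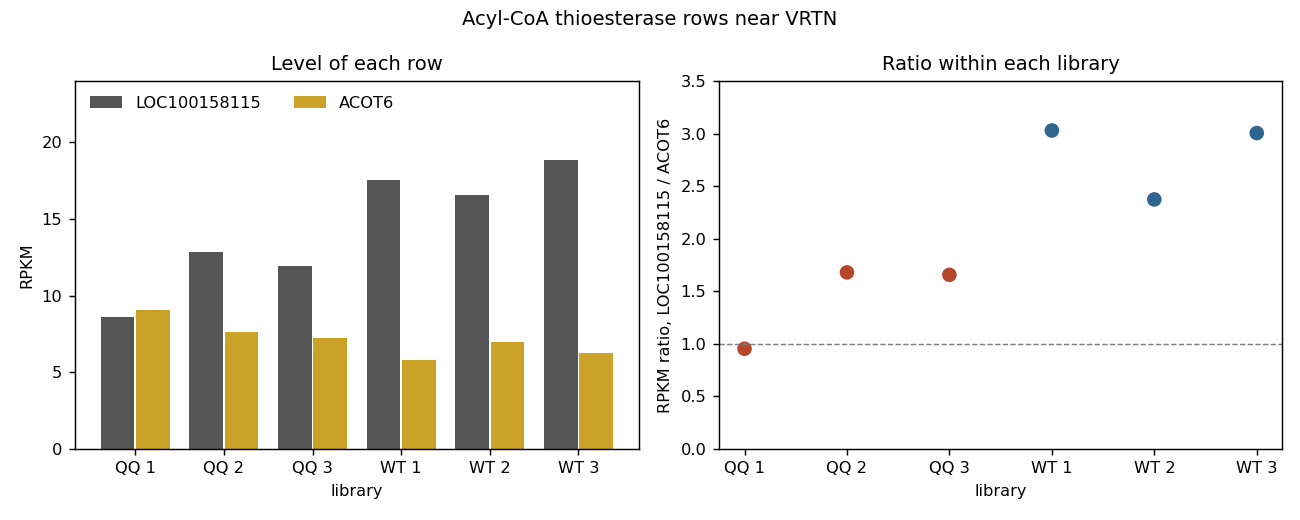
RPKM of LOC100158115 and ACOT6 in each library (left) and their ratio within each library (right), with the 3 QQ libraries left of the 3 WT libraries and the dashed line at equal levels. The ratio runs from 0.952 to 1.68 in QQ and from 2.37 to 3.03 in WT libraries.

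Members of this family are close copies, so uniquely mapped reads can be lost or split between them and both values are uncertain. With the reads of both rows added up, a sum that does not depend on how reads are split within the pair, the totals were 521, 585 and 532 reads in QQ replicates 1 to 3, against 685, 702 and 794 reads in WT replicates 1 to 3. In CPM this was 42.9 ± 3.97 in QQ and 56.2 ± 2.48 in WT embryos (SD, n = 3 each), and the edgeR log2 fold change of the sum was -0.49 ± 0.12 (adjusted p = 0.234). No QQ library reached the lowest WT total. Of 11 other listed thioesterases 3 were tested and 0 passed in either direction; all 3 had lower values in QQ, and their median log2 fold change was -0.27, beside -0.0028 over all tested rows. ACOT7, a cytosolic thioesterase, stood at 68.0 ± 2.30 RPKM in QQ and 67.1 ± 15.9 RPKM in WT embryos (log2 fold change -0.08 ± 0.17), and ACOT13, a mitochondrial one, at 27.5 ± 3.43 and 32.8 ± 5.72 RPKM in QQ and WT embryos (-0.35 ± 0.21).

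ENTPD5, an endoplasmic reticulum enzyme that hydrolyses nucleoside diphosphates and helps glycoproteins fold, had the largest log2 fold change among the neighbours. Its RPKM was 7.02, 12.1 and 10.7 in QQ replicates 1 to 3, against 5.42, 4.92 and 1.77 in WT replicates 1 to 3. All QQ libraries were above all WT libraries, and WT replicate 3 was far below the other WT libraries. The means were 9.93 ± 2.61 RPKM in QQ and 4.04 ± 1.98 RPKM in WT embryos (SD, n = 3 each), 2.31-fold higher in the edgeR fit (log2 fold change 1.21 ± 0.35, unadjusted p = 0.00710, adjusted p = 0.234). DESeq2 gave an adjusted p of 0.0552, and the edgeR and limma settings with all 6 libraries 0.229 to 0.295. With each library left out in turn the edgeR adjusted p ran from 0.140 to 0.526. The edgeR adjusted p of 0.234 and both ends of this range are tied values that LOC100158115, ENTPD5 and DNAL1 share, so they do not rank these genes. Without WT replicate 3 the log2 fold change of ENTPD5 was 0.86 ± 0.22 (edgeR adjusted p = 0.214). The covered share of the transcript was 96.1% to 99.3% in QQ libraries, against 89.1%, 91.2% and 66.5% in WT replicates 1 to 3. Of 7 other tested enzymes that split nucleotides at membranes, 0 passed, 5 had higher and 2 lower values, and the median was 0.07. ENTPD6, a related diphosphatase, stood at 23.2 ± 2.19 RPKM in QQ and 27.0 ± 4.45 RPKM in WT embryos (-0.32 ± 0.15), and CANT1, a calcium-activated nucleotidase, at 14.9 ± 0.884 and 14.1 ± 1.77 RPKM in QQ and WT embryos (-0.02 ± 0.17).

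DNAL1, a light chain of the outer dynein arm that bends cilia, is the shortest row of the group at 657 bp and had few reads. It held 40, 63 and 62 reads in QQ replicates 1 to 3, against 25, 43 and 15 reads in WT replicates 1 to 3. In RPKM this was 4.52, 7.62 and 7.73 in QQ libraries, against 3.05, 5.10 and 1.70 in WT libraries. The groups overlapped, since WT replicate 2 was above QQ replicate 1. The log2 fold change was 0.92 ± 0.37 (unadjusted p = 0.0335, edgeR adjusted p = 0.234), and 0.61 ± 0.31 without WT replicate 3. Reads covered 87.2% to 92.9% of its length in QQ libraries, against 80.1%, 92.1% and 57.1% in WT replicates 1 to 3. Among 6 other tested genes of the axonemal dyneins and their assembly, 0 passed, 4 had higher and 2 lower values, and the median was 0.07. The assembly factor DNAAF2 stood at 13.1 ± 0.928 RPKM in QQ and 12.4 ± 1.31 RPKM in WT embryos (-0.01 ± 0.13), and CCDC39, a ruler protein of the axoneme, at 3.63 ± 0.770 and 3.11 ± 0.539 RPKM in QQ and WT embryos (0.13 ± 0.20).

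ALDH6A1, the mitochondrial dehydrogenase that takes methylmalonate semialdehyde from valine and thymine to acyl-CoA, had higher values in QQ embryos, by a difference that shrank when WT replicate 3 was left out. Its RPKM was 32.8, 35.6 and 37.8 in QQ replicates 1 to 3, against 29.7, 31.7 and 18.5 in WT replicates 1 to 3. The groups were separate, but QQ replicate 1 and WT replicate 2 lay close together. The log2 fold change was 0.32 ± 0.18 (edgeR adjusted p = 0.308) and 0.13 ± 0.10 without WT replicate 3 (adjusted p = 0.550). Of 17 other tested genes of branched-chain amino acid breakdown 0 passed, 5 had higher and 12 lower values, and the median was -0.08. DLD, a dehydrogenase subunit shared by several mitochondrial complexes, stood at 72.6 ± 5.34 RPKM in QQ and 69.3 ± 9.44 RPKM in WT embryos (-0.02 ± 0.12), and ECHS1, an enoyl-CoA hydratase, at 132 ± 19.3 and 115 ± 60.4 RPKM in QQ and WT embryos (0.08 ± 0.31).

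COQ6, a hydroxylase of the ubiquinone ring, varied little within each group and differed little between them. It had 26.3, 24.9 and 22.5 RPKM in QQ replicates 1 to 3, against 25.6, 27.4 and 27.8 RPKM in WT replicates 1 to 3. The groups overlapped, and the log2 fold change was -0.23 ± 0.12 (edgeR adjusted p = 0.307). Of 10 other tested genes of coenzyme Q synthesis 0 passed, 2 had higher and 8 lower values, and the median was -0.23. COQ2, which joins the ring to its tail, stood at 31.8 ± 2.06 RPKM in QQ and 33.6 ± 1.53 RPKM in WT embryos (-0.17 ± 0.11), and COQ5, a methyltransferase, at 34.6 ± 4.69 and 39.8 ± 3.998 RPKM in QQ and WT embryos (-0.29 ± 0.14).

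PTGR2, which reduces 15-keto prostaglandins, lay at nearly the same level in both genotypes. It had 28.5, 32.6 and 29.98 RPKM in QQ replicates 1 to 3, against 26.9, 29.7 and 27.0 RPKM in WT replicates 1 to 3, with a log2 fold change of 0.03 ± 0.11 (edgeR adjusted p = 0.897). The groups overlapped. Of 7 other tested genes of prostaglandin metabolism 0 passed, 1 had a higher and 6 lower values, and the median was -0.23. PTGR1, the sister reductase, stood at 36.2 ± 6.76 RPKM in QQ and 39.2 ± 4.88 RPKM in WT embryos (-0.21 ± 0.21), and PTGES3, a co-chaperone that also makes prostaglandin E, at 191 ± 12.3 and 200.3 ± 13.9 RPKM in QQ and WT embryos (-0.17 ± 0.11).

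NPC2, the lysosomal protein that binds cholesterol and passes it to NPC1, is the only member on the far side of VRTN from the other 8 neighbours. It had 44.6, 54.7 and 56.5 RPKM in QQ replicates 1 to 3, against 43.5, 42.0 and 53.8 RPKM in WT replicates 1 to 3. The groups overlapped, and here WT replicate 3 sat with the high QQ libraries. The log2 fold change was 0.06 ± 0.14 (edgeR adjusted p = 0.823) and 0.20 ± 0.10 without WT replicate 3. Of 14 other tested lysosomal genes 0 passed, 5 had higher and 9 lower values, and the median was -0.08. LAMP1, a protein of the lysosome membrane, stood at 105 ± 6.24 RPKM in QQ and 105 ± 8.58 RPKM in WT embryos (-0.10 ± 0.12), and CTSB, the protease cathepsin B, at 162 ± 13.3 and 177 ± 22.9 RPKM in QQ and WT embryos (-0.23 ± 0.14).

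PNMA1, a neuronal antigen of the paraneoplastic Ma family, had lower values in every QQ library. Its RPKM was 9.24, 8.86 and 7.27 in QQ replicates 1 to 3, against 9.98, 11.03 and 10.18 in WT replicates 1 to 3. The gap between the groups was smaller than the spread within QQ, and the log2 fold change was -0.39 ± 0.18 (edgeR adjusted p = 0.253). Of the 10 other listed PNMA genes 1 was tested: ZCCHC12, at 0.247 ± 0.103 RPKM in QQ and 0.359 ± 0.118 RPKM in WT embryos (-0.63 ± 0.43), did not pass.

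**Figure D3:**
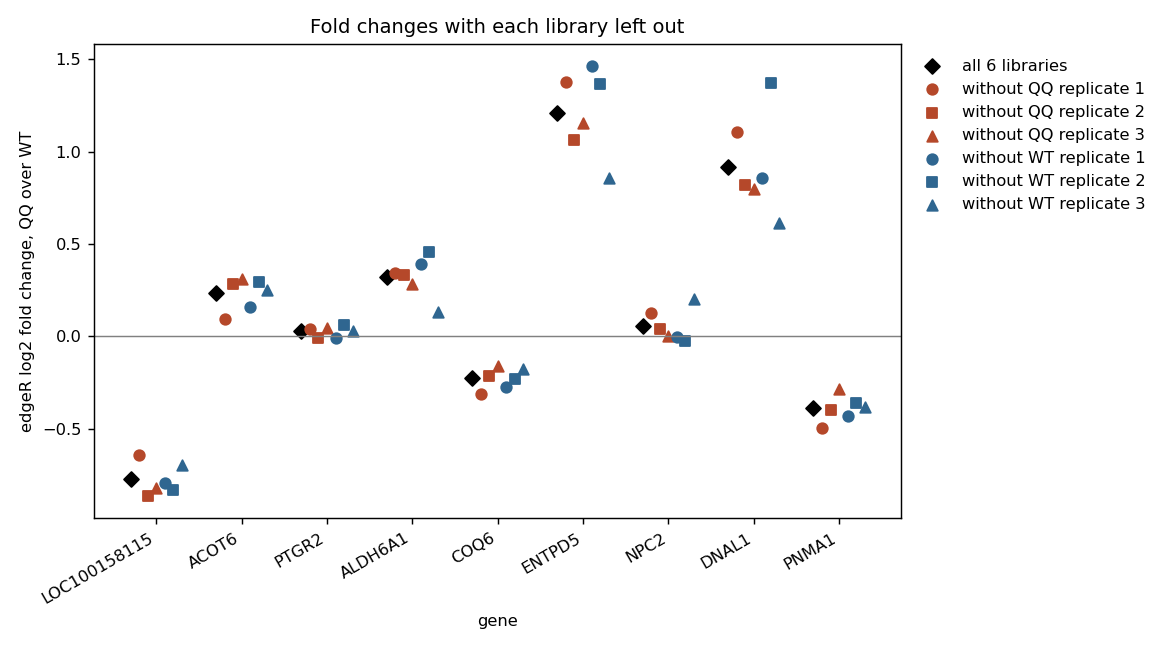
edgeR log2 fold change of QQ over WT for the 9 tested neighbours (y axis, 0 marked) with all 6 libraries (black diamonds) and with each library left out in turn. LOC100158115 stays between -0.87 and -0.64, DNAL1 and ENTPD5 are lowest without WT replicate 3 (0.61 and 0.86), and PTGR2 and NPC2 cross 0.

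Among the 9 tested neighbours, 3 had an unadjusted edgeR p under 0.05 (LOC100158115, ENTPD5 and DNAL1), where 20.3% of all tested rows did. The groups did not overlap in RPKM for 5 of 9, with QQ above WT for ACOT6, ENTPD5 and ALDH6A1 and QQ below WT for LOC100158115 and PNMA1, where 27.9% of all rows did not overlap (18.8% above and 9.07% below). In TMM-scaled CPM it was 4 of 9, where 29.7% of all rows did not overlap. The members were chosen with earlier results of these data known, so their shares are a description only. Of the 17 other tested rows within 1 Mb of VRTN, 3 had groups that did not overlap in RPKM. Directions were mixed: 6 of 9 had higher and 3 lower values, and the median of their log2 fold changes was 0.06, beside -0.0028 over all tested rows, of which 49.7% lay above 0. WT replicate 3 was the lowest of the 6 libraries for 3 of 9 (DNAL1, ENTPD5 and ALDH6A1) and the highest for 2 (LOC100158115 and COQ6). DNAL1 and ENTPD5 also had the widest spread within WT, with coefficients of variation of 52.2% and 48.9%, against 4.40% to 26.8% for the other 7. In QQ the coefficients ran from 6.91% for PTGR2 to 27.6% for DNAL1.

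The wider neighbourhood held 44 annotated genes within 1 Mb of VRTN on each side in the Sscrofa11.1 gene table, which was used for gene order only. Of these, 32 were matched to a row of the deposited table by accession or description, and 26 rows, 1 for each of 26 genes, were tested. Of the 17 tested rows outside the 10 members 0 passed, and their adjusted p ran from 0.234 to 0.988. Of them 8 had higher and 9 lower values, and their median log2 fold change was -0.048; 3 of 17 had an unadjusted p under 0.05 and 3 of 17 had groups that did not overlap, so neither share was above that of the whole table.

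The genes nearest to VRTN also had low levels, under 1 RPKM in both genotypes, though SYNDIG1L and the second of the ABCD4 rows lay above VRTN. ABCD4, a lysosomal transporter linked to vitamin B12 and the next gene on one side, was listed with 2 rows. The first held 1 read in all, in WT replicate 3. The second held 16, 6 and 7 reads in QQ replicates 1 to 3, against 22, 12 and 25 reads in WT replicates 1 to 3, for a log2 fold change of -1.09 ± 0.45 (edgeR adjusted p = 0.234). The ranges of the second row overlapped, and reads can be split between the 2 rows. Which row is the gene next to VRTN in the Sscrofa11.1 order is not known, so the value of the second row is not given as that of the adjacent gene. SYNDIG1L, related to a synapse protein and the next gene on the other side, held 0, 6 and 14 reads in QQ replicates 1 to 3, against 1, 1 and 3 reads in WT replicates 1 to 3, and fell below the filter on low counts. NPC2, the gene beyond SYNDIG1L, was again among the more abundant rows of the table, with a mean RPKM above that of 91.1% of rows.

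**Figure D4:**
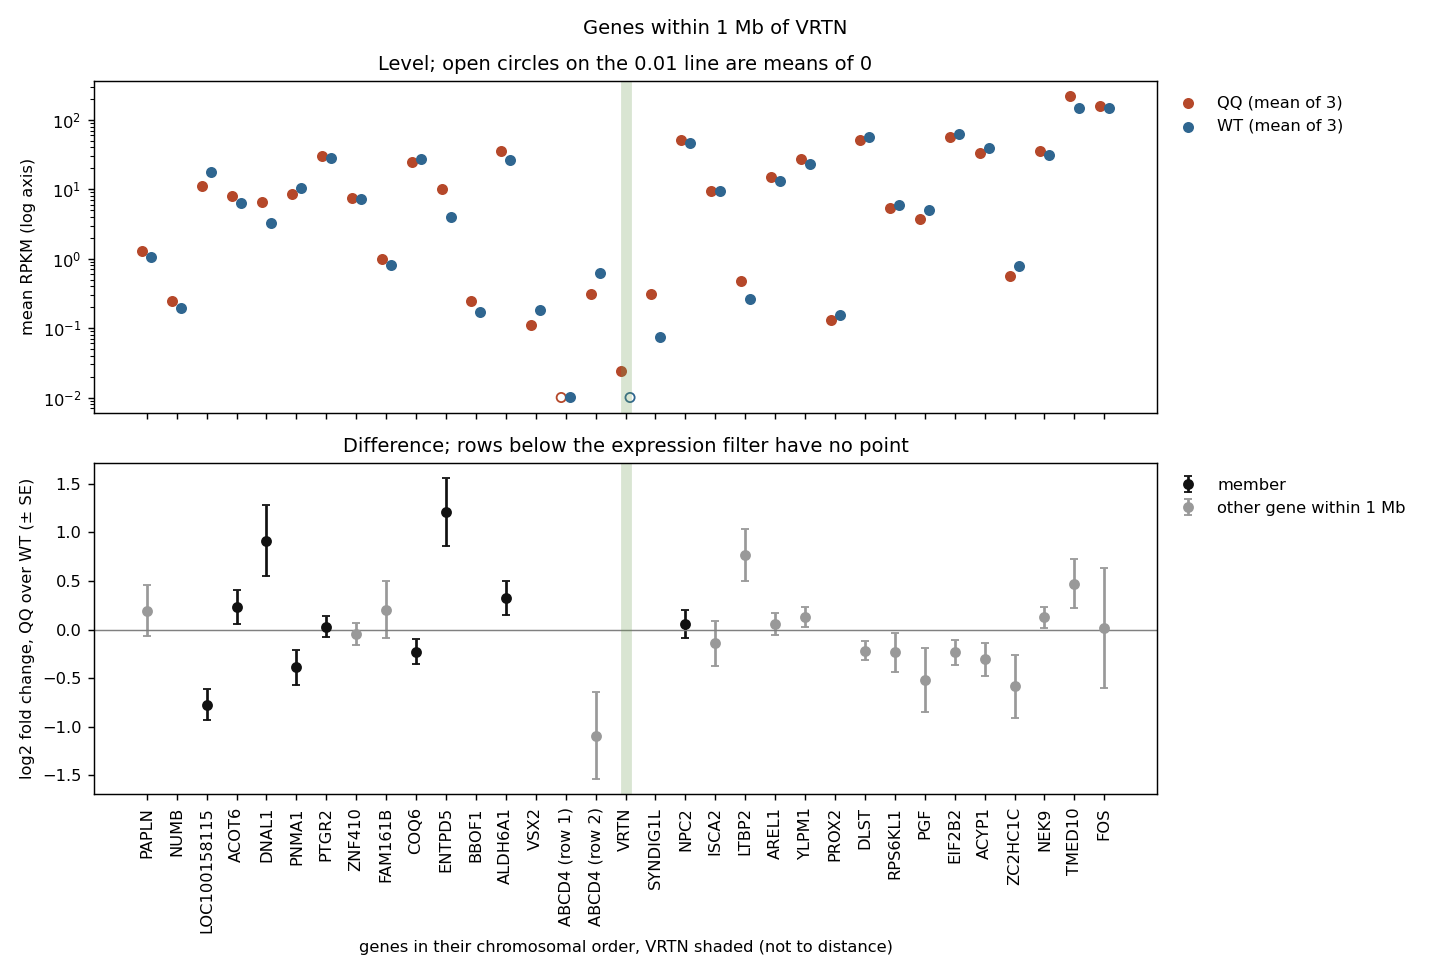
Mean RPKM of 3 libraries per genotype on a log axis (top; open circles are means of 0) and log2 fold change of QQ over WT ± SE (bottom) for the measured genes within 1 Mb of VRTN, in chromosomal order with VRTN shaded. VRTN, both ABCD4 rows and SYNDIG1L lie under 1 RPKM in both genotypes, and fold changes of both signs occur on both sides of VRTN. Which ABCD4 row is the gene next to VRTN is not known.

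The profile of each neighbour over the 6 libraries was set beside all named rows with a mean of at least 1 RPKM, by Pearson's correlation of log2(RPKM + 0.5). Since 6280 or 6281 rows were compared over 6 libraries that differ in genotype, depth and embryo, high values arise for every gene and are a description only. Among the rows most like LOC100158115 were GEMIN4 (0.990) and MTHFD1 (0.979). ENTPD5 was most like ADAMTS19 (0.999), LRP6 (0.998) and ATG2B (0.998), and ALDH6A1 most like ADD3 (0.999), ROR1 (0.999) and PAK2 (0.999). DNAL1 was most like PPM1A (0.998), PNMA1 like H2AFY (0.998), PTGR2 like TMEM192 (0.998), COQ6 like ACAA2 (0.991), NPC2 like CDX2 (0.982) and ACOT6 like ISG15 (0.972).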

How the data were processed

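Total RNA of 3 QQ and 3 WT embryos was made into TruSeq libraries, per the labels' protocols. Reads were placed on Sscrofa 10.2, per the submitters' processing notes; which aligner, counter and strand setting were used is not given in the sources used here. Per the file headers, the authors' table gives for each transcript and library the count of uniquely mapped reads, the percent of the transcript covered and the RPKM. The deposited counts add up to the totals in the headers, and dashes were read as 0. The authors' RPKM equals count over length and total, to within 1.29e-07 of its size.

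The counts were tested with edgeR 4.0.16 in R 4.3.3: TMM factors (0.933 to 1.06), a filter with minimum count 10 and minimum total 15 that kept 13957 rows, VRTN kept in beside them, quasi-likelihood fits with no covariate, and Benjamini-Hochberg adjustment. The SE is the log2 fold change divided by the square root of F. Alternatives were median-ratio scaling, no filter, DESeq2 1.42.0, limma 3.58.1 on log2(RPKM + 0.5) and log2(RPKM + 1), a replicate block, each library left out and, added after seeing the data, both thioesterase rows summed. The test was checked on simulated counts. Exact tests used scipy 1.17.1, and figures matplotlib 3.10.9.

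Symbols came from the deposited protein accession (7185 rows) or KEGG gene (2287 rows) through the Sscrofa11.1 gene table. PNMA1 and 3 rows of other genes near VRTN, among them the second ABCD4 row, were named from the deposited protein description. Gene lists use the row with most reads per symbol. Named genes were the 10 members, the nearest measured gene on each side of VRTN, the 2 tested genes of each list with the highest mean RPKM, any list or neighbourhood gene past the test, and the 3 most correlated rows per member, of which the text gives 1 to 3; the row most like LOC100158115 is not reported here. The members and lists were chosen with earlier results of these data known. In these libraries 1 read in a transcript of 2000 bp is worth 0.0371 to 0.0410 RPKM. Intervals and floors cover counting error only.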

Additional observations from a re-analysis of the deposited data

How the results depend on the processing

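Of the 10 members, LOC100158115 alone changed its side of the threshold, and only with DESeq2 (log2 fold change -0.76, adjusted p = 0.0165, with 103 rows higher and 8 lower in all). Over the edgeR and limma settings with all 6 libraries its adjusted p ran from 0.229 to 0.295. With single libraries left out its edgeR adjusted p ran from 0.140 to 0.526. With single libraries left out, edgeR called 0 to 2 rows higher and 0 to 1 lower over the whole table, none of them a member. Both PTGR2 and NPC2 lay near 0 and turned negative: PTGR2 was -0.0067 without QQ replicate 2 and -0.011 without WT replicate 1, in a range of -0.011 to 0.061, and NPC2 was -0.0036 without WT replicate 1 and -0.024 without WT replicate 2, in a range of -0.024 to 0.20. The other 7 tested neighbours kept their direction in every setting. Limma, which used no scaling factors, gave medians on log2(RPKM + 0.5) and log2(RPKM + 1) of 0.083 and 0.081 within 1 Mb of VRTN, 0.0035 and 0.0054 for branched-chain amino acid breakdown, -0.13 and -0.12 for coenzyme Q synthesis, 0.010 and 0.010 for lysosomal genes, -0.12 and -0.12 for prostaglandin metabolism, and -0.20 and -0.12 for the single PNMA gene; the median of all rows was 0.081 and 0.071. With single libraries left out the medians ran from -0.13 to -0.092 for branched-chain amino acid breakdown, -0.040 to 0.19 for axonemal dyneins, -0.16 to 0.0034 for lysosomal genes, -0.30 to -0.11 for prostaglandin metabolism and -0.99 to -0.42 for the PNMA gene. The cause was not tested. The exact p of VRTN was 0.4 with pseudocounts of 0.1 and 1, and 0.2 to 0.8 with single libraries left out. The deviations of same-numbered libraries from their group means had correlations of -0.19, 0.21 and -0.056. Over all pairs of a QQ and a WT library these ran from -0.19 to 0.22. With 3 libraries per group this cannot settle whether the numbers pair the libraries. With the replicate number as a block edgeR called 0 rows, and LOC100158115 had a log2 fold change of -0.78 (adjusted p = 0.295). Few reads limit VRTN, SYNDIG1L, ABCD4 and DNAL1.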

Other observations

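Both genes described here lie within 1 Mb of VRTN, were singled out after their values had been seen, and did not pass edgeR. TMED10, a cargo receptor of the early secretory pathway, held 3972, 3743 and 3473 reads in QQ replicates 1 to 3, against 2733, 3445 and 1464 reads in WT replicates 1 to 3 (0.47 ± 0.25, adjusted p = 0.296). WT replicate 3, which stood apart from the other libraries, had the fewest reads of TMED10, and no fold change without it is given. FOS, an immediate early transcription factor, ranged from 1285 to 9330 reads over the QQ libraries and from 2190 to 6310 reads over the WT libraries, with a log2 fold change of 0.02 ± 0.62.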
